A study of Caenorhabditis elegans with 12 samples.

Results

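MicroRNA genes and long intergenic RNA genes for which H4K5ac or H4K8ac regions were named in adult Caenorhabditis elegans are described here. They were taken by name from the deposited tables, as genes called mir- or linc- followed by a number. The tables named 78 of them among 7553 genes in all, 47 microRNA and 31 long intergenic RNA genes. The H4K5ac table named 52 (32 microRNA, 20 long intergenic RNA) of its 5632 genes, while 61 (38 and 23) of 5671 were named for H4K8ac. Both tables named 35 of them (23 and 12), 17 were named for H4K5ac alone and 26 for H4K8ac alone. A region named for a gene did not always overlap it. It did so in 28 of 32 microRNA and 16 of 20 long intergenic RNA genes for H4K5ac, and in 32 of 38 and 21 of 23 for H4K8ac. Not overlapped by their own regions were mir-66 for both marks, mir-787 and linc-137 for H4K5ac, and mir-5592.2 and linc-15 for H4K8ac, among others.

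All 12 samples came from wild-type Bristol N2 adults kept at 20 °C on Escherichia coli OP50, with chromatin taken from whole animals. For each acetylated lysine of histone H4, 3 libraries of immunoprecipitated chromatin (IP) stood against 3 libraries of input DNA, which makes 4 groups of 3 replicates. The groups differ in antibody and precipitation and in no genotype or treatment. A whole animal mixes germline, gut, muscle, nerve and skin, so a mark carried by few cells cannot be told apart from a weak mark carried by many. The labels do not tell whether replicates were separate cultures, so a p-value here reflects no more than the spread of the libraries, which could be technical.

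MicroRNAs are short RNAs cut from hairpin transcripts by Drosha and Dicer and loaded into Argonaute proteins, which repress messenger RNAs through a short seed match. In this worm they are known for the timing of larval development, for embryonic viability and for stress resistance. Many are encoded within introns of protein-coding genes or in clusters that are transcribed as 1 unit. Long intergenic RNAs are transcripts without a long reading frame that lie between coding genes, and most have no known function in the worm. Acetylation of lysines 5 and 8 of histone H4 neutralises their charge, loosens chromatin and is found mainly at active genes.

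Each table gave 1 estimated read count per gene and library. Totals over the listed genes ran from 5460429 to 9156392 per library, and the counts of single members ran from 305 to 5146. Counts are given below as CPM, counts scaled to library size, after TMM scaling. IP and input were compared with edgeR's quasi-likelihood test, adjusted by Benjamini-Hochberg over the whole table at a threshold of 0.05. Tables hold genes near regions of high IP over input, so a fold change compares a member with the typical listed gene. "Lower" therefore means less enriched than that gene, and does not mean that the mark is missing. Input CPM of the members fell with the number of other annotated genes within 2 kb of the start site (Spearman -0.72 over 52 genes for H4K5ac, -0.85 over 61 for H4K8ac). It followed gene length less closely (0.39 and 0.13). The labels do not say how a read was assigned to its gene. Whether reads were shared out among neighbouring genes was not tested, and CPM is not compared between genes. A member's value is uncertain where a host or neighbouring gene lies close, and likewise in families of near-identical copies such as mir-2217, mir-2209, mir-1829 and mir-5592.

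Listed regions covered more of the annotated microRNA genes than of the annotated long intergenic RNA genes. Coordinates are those of WBcel235, and an overlap of 1 bp was enough. H4K5ac regions lay over 141 of 255 microRNA genes (55.3%) and 67 of 170 long intergenic RNA genes (39.4%), beside 10647 of 19971 protein-coding genes (53.3%). H4K8ac regions lay over 139 (54.5%) and 76 (44.7%), beside 11602 of the 19971 protein-coding genes, a higher share than that of the microRNA genes. Of all annotated genes other than piRNA genes, 50.1% lay under H4K5ac and 54.3% under H4K8ac regions, so the microRNA share was close to it for H4K8ac. That order depended on the rule. With at least 0.5 of the gene overlapped, the H4K8ac shares were 54.1% of microRNA, 36.5% of long intergenic RNA and 48.5% of protein-coding genes, and 47.6% of all but piRNA genes. With regions limited to those of higher IP over input, they were 42.4%, 27.1%, 40.8% and 36.8%. Both marks were over 131 microRNA genes, and neither was over 106. For long intergenic RNA genes these counts were 62 and 89. A region list has no replicates, so these shares carry no test, and a gene outside the listed regions is not shown to lack the mark.

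The chromosomes differed. Of the 71 microRNA genes on X, 23 (32.4%) lay under an H4K5ac region and 23 under an H4K8ac region. On chromosome III the counts were 21 and 22 of 27 (77.8% and 81.5%), and on chromosome II they were 37 and 34 of 49. Clusters weigh on these shares, since each hairpin is counted singly. The hairpins from mir-4807 to mir-4921, at X:1872466-1880038, lay under no region of either mark. Those from mir-35 to mir-41, at II:11537608-11538404, all lay under regions of both. The share of all annotated genes was not taken by chromosome, so these differences are not shown to be particular to microRNA genes. Long intergenic RNA genes went lowest on chromosome IV for H4K5ac, with 6 of 26, and on chromosomes V and X for H4K8ac, with 12 of 33 on each. X was the 1 chromosome where the microRNA share was below the long intergenic RNA share, for H4K5ac (23 of 71 against 13 of 33) and for H4K8ac (23 of 71 against 12 of 33).

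**Figure D1:**
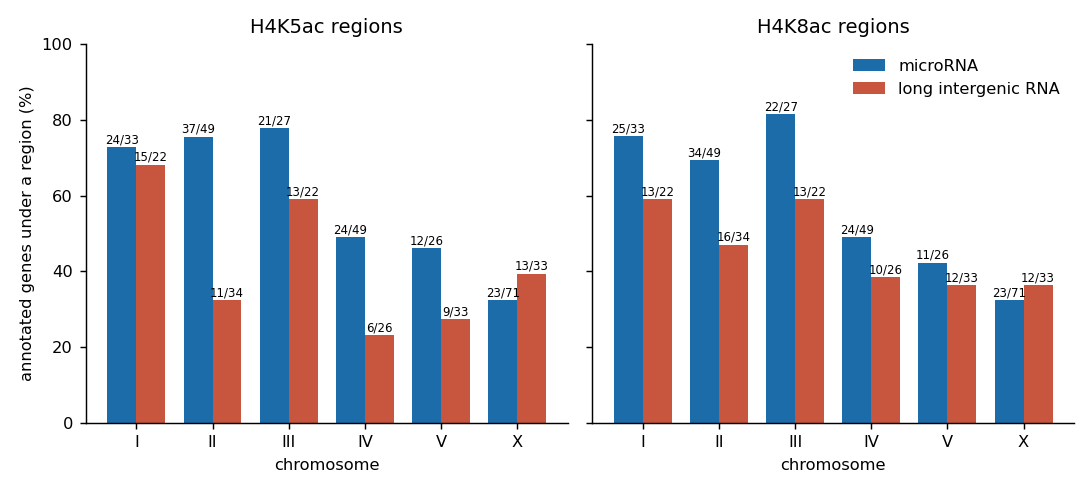
Share of annotated microRNA (blue) and long intergenic RNA (red) genes that a listed region overlaps by at least 1 bp, in percent, by chromosome and mark, with the counts above the bars. MicroRNA shares were 32.4% on X for each mark and 77.8% (H4K5ac) and 81.5% (H4K8ac) on chromosome III.

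Most of the well-studied microRNA families lay under regions, although few of their genes were the gene a region was named for. Clustered hairpins are counted singly here, so a count of genes is not a count of separate loci. The mir-35 family, known for its role in embryonic development, had 8 of 8 genes under regions of H4K5ac and of H4K8ac, and none gave its name to a region. All of them but mir-42 lie in a cluster at II:11537608-11538404. The mir-51 family, broadly expressed and needed for embryonic viability, had 6 of 6 under each mark, of which mir-51 was named. In this family mir-54, mir-55 and mir-56 form a cluster at X:13144691-13145094. Among the let-7 sisters, which time larval cell fates, 5 of 6 lay under each mark and mir-793 lay under neither. The mir-58 family, the relatives of fly bantam, had 7 of 8 genes under H4K5ac and 6 of 8 under H4K8ac regions, with mir-58.2 under neither. The muscle microRNA gene mir-1, the neuronal mir-124, and mir-34 and mir-71, both known from stress and ageing, all lay under both marks. In all, 149 microRNA genes lay under a region and 105 of these were not named for one. For long intergenic RNA genes these counts were 81 and 51. Counts exist only for the named genes, so mir-35, mir-1, mir-71 and mir-124 have no values below.

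Among the listed microRNA genes the share that passed as higher was above that of all listed genes for both marks. Long intergenic RNA genes had a lower share of higher genes and a higher share of lower genes than the table for H4K8ac, while for H4K5ac their counts were near those of all genes. For H4K5ac, 18 of 32 microRNA genes passed the test as higher and 6 as lower, where 32.2% of all listed genes were higher and 29.5% lower (61.6% in either direction). Their median log2 fold change was 0.24, with a range of -0.35 to 0.96. Of the 20 long intergenic RNA genes 5 were higher and 7 lower, with a median of -0.087 and a range of -0.38 to 1.32. The median over all 5632 genes was -0.017. Without H4K5ac input replicate 2 the long intergenic RNA counts were 4 higher and 2 lower, and 3 microRNA genes were lower. For H4K8ac, 19 of 38 microRNA genes were higher and 10 lower, where 31.2% of all listed genes were higher and 33.6% lower (64.8% in either direction). Their median was 0.15, with a range of -0.34 to 0.95. Of 23 long intergenic RNA genes 3 were higher and 12 lower, with a median of -0.16 and a range of -0.32 to 0.54, beside -0.036 over all 5671 genes.

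The microRNA median was the higher one when each IP was set against the mean of the inputs of its mark. All IPs of a mark share that mean, so no IP was paired with an input here. The microRNA median exceeded the long intergenic RNA median by 0.36, 0.29 and 0.21 on the log2 scale in H4K5ac replicates 1 to 3, and by 0.31, 0.26 and 0.25 in those of H4K8ac. The members were picked as lists with earlier results known, so no test was made over the classes. The direction of single calls depended on the scaling. TMM scaling over the last 10% of each list, the genes of lowest IP over input, raised the median of all genes by 0.34 for H4K5ac and 0.31 for H4K8ac, left no member lower, and turned the long intergenic RNA medians to 0.26 and 0.14. Under it all calls over the whole table were higher (100%), against 52.2% for H4K5ac and 48.1% for H4K8ac under the TMM scaling used here. Under total count scaling 33.9% and 36.8% were higher.

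**Figure D2:**
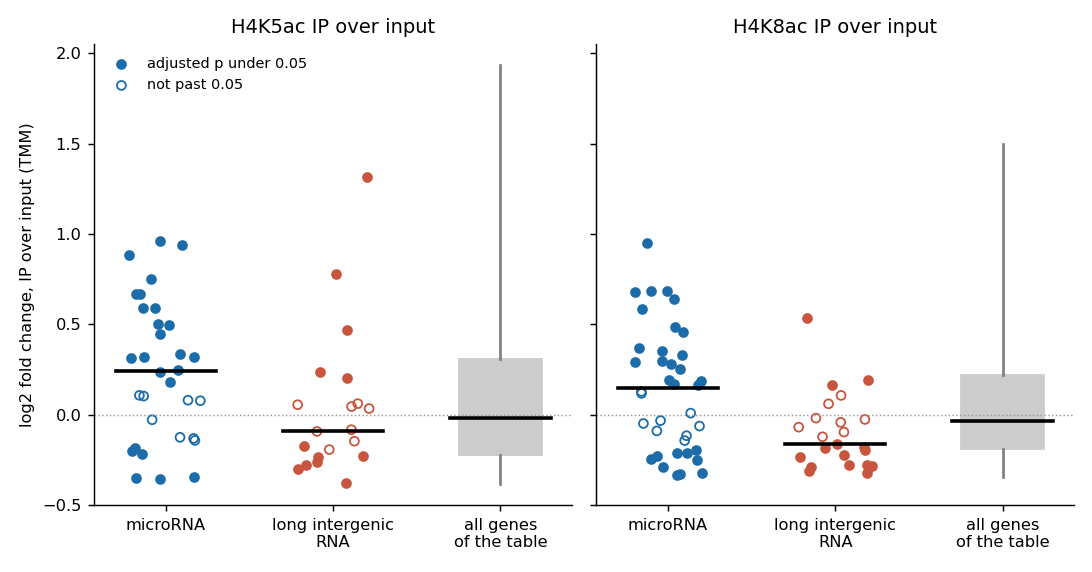
log2 fold change of IP over input (TMM scaling) for each microRNA and long intergenic RNA gene of the H4K5ac and H4K8ac tables. Filled points passed an adjusted p of 0.05, open points did not, black lines are medians, and the grey box and line give the quartiles and the range of all genes of the table. The microRNA medians, 0.24 and 0.15, lie above those of long intergenic RNA genes, -0.087 and -0.16.

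Members of known clusters and families were among the highest microRNA genes for both marks. One of them was mir-51, at IV:11026013-11026112 under a region that spans part of alh-3, an aldehyde dehydrogenase gene. For H4K5ac its CPM was 178, 170 and 149 in the IPs and 86.5, 87.1 and 84.9 in the inputs. For H4K8ac it was 160, 130 and 154 in the IPs and 93.2, 88.6 and 95.1 in the inputs. Every IP lay above every input for both marks, and mir-51 was higher by log2 folds of 0.94 (SE 0.079, edgeR adjusted p = 8.05e-06) and 0.69 (SE 0.074, edgeR adjusted p = 8.07e-06).

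Also high were mir-229 and mir-66, neighbours within the span of gcn-1, a gene of translational control. They belong to a cluster with mir-64 and mir-65, and regions of both marks covered all 4 hairpins. The H4K5ac CPM of mir-229 was 129, 118 and 101 in the IPs and 72.6, 68.3 and 65.7 in the inputs. Its H4K8ac CPM was 121, 89.5 and 105 in the IPs and 65.2, 63.1 and 69.3 in the inputs. The groups did not overlap for either mark, with log2 folds of 0.75 (SE 0.092) and 0.68 (SE 0.091). The folds of mir-66 were 0.67 and 0.58, while those of the host gcn-1 itself were 0.29 and 0.19. Among the listed genes, 35.2% had every H4K5ac IP above every input and 33.1% had every IP below. The H4K8ac shares were 32.7% and 36.5%. Of the microRNA genes 20 of 32 had every H4K5ac IP above every input, and 19 of 38 did so for H4K8ac.

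The highest microRNA gene of the H4K5ac table was mir-1829.2, a member of a multi-copy family within the span of F20D1.3 on X, with 222, 203 and 167 CPM in the IPs and 102, 102 and 101 in the inputs (log2 fold 0.96, SE 0.096). That of the H4K8ac table was mir-5595, within nurf-1, which encodes the large subunit of the NURF chromatin remodeller. It had 426, 360 and 411 CPM in the IPs and 211, 196 and 213 in the inputs (log2 fold 0.95, SE 0.088). Each stood in 1 table only, so the other mark gives no value for it. Their IPs were 1.94-fold and 1.93-fold above their inputs, with no overlap between groups. Within the septin gene unc-59, mir-8205 had log2 folds of 0.88 for H4K5ac and 0.64 for H4K8ac, and mir-270 had 0.59 and 0.68. Within ppfr-1, which encodes a regulatory subunit of a protein phosphatase, mir-2 had 0.59 and 0.37.

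The H4K5ac CPM of mir-34, at X:2969752-2969848 near the GABA-B receptor gene gbb-1, was 385, 328 and 292 in the IPs and 212, 204 and 217 in the inputs. Its H4K8ac CPM was 301, 233 and 249 in the IPs and 217, 211 and 212 in the inputs. IPs were above inputs for both marks, with IP replicate 1 the highest each time. The log2 fold was 0.67 for H4K5ac (SE 0.11, edgeR adjusted p = 0.000286) and 0.29 for H4K8ac (SE 0.083, edgeR adjusted p = 0.00715).

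The let-7 sister mir-84, at X:16022404-16022478, differed in its calls. Its H4K5ac CPM was 190, 173 and 152 in the IPs and 166, 180 and 180 in the inputs, so the groups overlapped (log2 fold -0.03, SE 0.086). Its H4K8ac CPM was 159, 148 and 156 in the IPs and 187, 193 and 197 in the inputs, with every IP below every input (log2 fold -0.32, SE 0.052, edgeR adjusted p = 0.0002). Only 2.1% of H4K8ac genes had a lower fold. The other listed sister, mir-794, had log2 folds of 0.08, which did not pass, and 0.19, which passed as higher but not without H4K8ac input replicate 3 (edgeR adjusted p = 0.057).

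Of the mir-58 family, mir-81 passed as higher for H4K5ac by a narrow margin (log2 fold 0.18, edgeR adjusted p = 0.0497) and had -0.06 for H4K8ac. That H4K5ac call was lost under DESeq2 size factors (edgeR adjusted p = 0.057) and under total count scaling (log2 fold 0.045, edgeR adjusted p = 0.596). It was also lost without H4K5ac IP replicate 2 (edgeR adjusted p = 0.224) and without any 1 of the H4K5ac inputs (0.0898 to 0.133). The other listed member, mir-2209.2, had -0.13 and -0.05 and passed for neither mark. Its neighbour rbm-39, a gene of an RNA-binding splicing factor that reaches within 2 kb of the mir-2209.2 start, had an H4K5ac log2 fold of 1.34.

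The lowest microRNA genes of the H4K5ac table were mir-2217.5 (log2 fold -0.35), mir-8210 (-0.35), mir-4937 (-0.34) and mir-787 (-0.21). The call of mir-787 was lost without H4K5ac IP replicate 1 or input replicate 1 or 2 (edgeR adjusted p up to 0.0921). mir-47, lower for H4K5ac too (-0.20), lost that call without IP replicate 2 or 3 or input replicate 2 or 3 (up to 0.149). Those of the H4K8ac table were mir-5592.2 (-0.34), mir-47 (-0.33), mir-84 and mir-2217.5 (-0.29). The H4K5ac CPM of mir-2217.5 was 66.2, 67.8 and 67.9 in the IPs and 87.8, 83.1 and 87.5 in the inputs. For H4K8ac it was 67.0, 69.9 and 68.9 in the IPs and 91.6, 77.8 and 81.2 in the inputs. All its IPs were below its inputs for both marks, and its IP values spread less than its inputs. Under TMM scaling over the last 10% of the list, mir-47, mir-787 and mir-4937 had H4K5ac log2 folds above 0 (0.14, 0.12 and 0.00029), as mir-2217.5 did for H4K8ac (0.021).

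**Figure D3:**
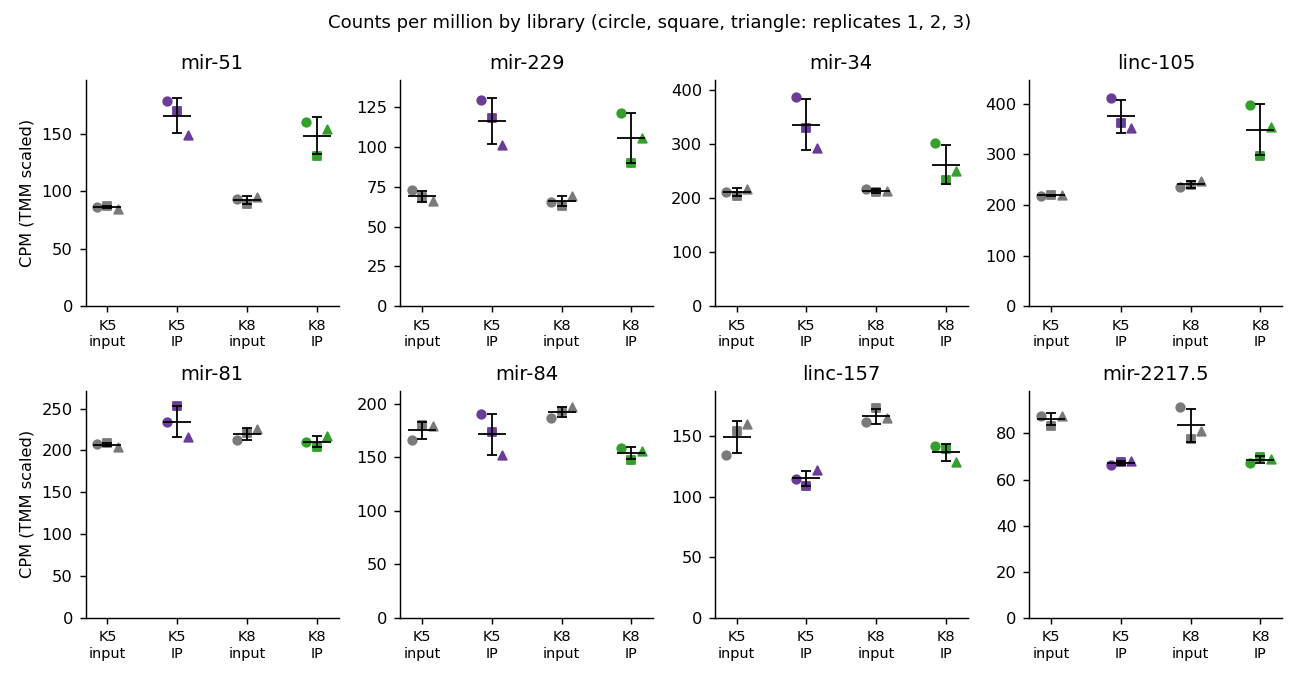
CPM (TMM scaled) of 6 microRNA and 2 long intergenic RNA genes in each library, H4K5ac (K5, purple IPs) and H4K8ac (K8, green IPs) with their inputs in grey. Symbols are replicates and bars are the mean and SD over 3 libraries. IPs stand above inputs for mir-51, mir-229, mir-34 and linc-105 and below them for linc-157 and mir-2217.5, and mir-84 is below its inputs for H4K8ac only.

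Among long intergenic RNA genes, linc-90 and linc-105 stood apart from the rest. The H4K5ac CPM of linc-90, at III:352222-355402 beside gei-4, was 604, 577 and 472 in the IPs and 233, 212 and 218 in the inputs. It was 2.49-fold higher in IP (log2 fold 1.32, SE 0.13, edgeR adjusted p = 1.18e-05), above 99.5% of the H4K5ac genes, and it was not named for H4K8ac. For linc-105, at III:10718341-10719485 with no other annotated gene within 2 kb of its start, H4K5ac CPM was 412, 362 and 351 in the IPs and 217, 220 and 220 in the inputs. Its H4K8ac CPM was 396, 297 and 353 in the IPs and 234, 240 and 247 in the inputs. Every IP was above every input, with log2 folds of 0.78 (SE 0.095, edgeR adjusted p = 4.70e-05) and 0.54 (SE 0.099, edgeR adjusted p = 0.000481). The other long intergenic RNA genes that passed as higher were linc-58 (0.47), linc-82 (0.24) and linc-142 (0.20) for H4K5ac, and linc-37 (0.19) and linc-152 (0.16) for H4K8ac. Of these, linc-58 kept its call without each library in turn. The call of linc-82 was lost without any 1 of the H4K5ac inputs (edgeR adjusted p up to 0.0585), and that of linc-142 without IP replicate 2 or 3 or input replicate 1 or 3 (up to 0.163). That of linc-37 was lost without H4K8ac IP replicate 3 or input replicate 1 or 2 (up to 0.0612), and that of linc-152 without IP replicate 3 or any 1 of the inputs (up to 0.139).

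The lowest long intergenic RNA genes lay close to the lower end of the tables. The H4K5ac CPM of linc-157, at IV:9060779-9063687, was 115, 109 and 122 in the IPs and 135, 154 and 160 in the inputs. For H4K8ac it was 142, 140 and 129 in the IPs and 162, 174 and 165 in the inputs. All IPs lay below all inputs, with log2 folds of -0.38 (SE 0.081) and -0.28 (SE 0.057), and only 0.213% of H4K5ac genes had a lower fold. In the H4K5ac table linc-100 (-0.30), linc-159 (-0.28) and linc-137 (-0.26) followed. In the H4K8ac table linc-138 (-0.32), linc-99 (-0.31) and linc-15 (-0.29) were below linc-157. The H4K5ac call of linc-100 was lost without input replicate 2 (edgeR adjusted p = 0.065), and that of linc-137 without IP replicate 2 or 3 or input replicate 2 or 3 (up to 0.109). That of linc-99, at -0.23, was lost without IP replicate 2 or input replicate 2 or 3 (up to 0.158). Without H4K5ac input replicate 2, 2 in place of 7 were lower, and without H4K5ac IP replicate 2 or input replicate 3 the count was 3. Without H4K5ac input replicate 1 or 3, 3 in place of 5 were higher. For H4K8ac the count of higher genes went from 3 to 1 without IP replicate 3 or input replicate 1 or 2, and to 5 without IP replicate 2. The H4K5ac count of lower microRNA genes went from 6 to 3 without input replicate 2.

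IP libraries differed in how far they departed from input. The SD of log2 IP over mean input across all listed genes was 0.475, 0.372 and 0.310 in H4K5ac IP replicates 1 to 3 and 0.361, 0.237 and 0.303 in those of H4K8ac. H4K5ac IP replicate 1 had the highest CPM of the 3 IPs in 18 of the 23 members that were higher, and H4K8ac IP replicate 1 in 15 of 22, beside 71.8% and 78.2% of all genes called higher. Among the members that were lower, H4K5ac IP replicate 1 had the lowest CPM in 6 of 13 and the highest in 5, and H4K8ac IP replicate 1 the lowest in 11 of 22 and the highest in 6. Of all genes called lower, IP replicate 1 was the lowest in 65.8% for H4K5ac and 62% for H4K8ac. The part of this difference between libraries in the single folds was not tested.

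Regions named for members ran from 0.599 to 25.399 kb, and their width went with the fold. H4K5ac regions of microRNA genes had a median width of 5.199 kb and those of long intergenic RNA genes 3.199 kb. For H4K8ac these were 5.099 and 2.999 kb. All 9 microRNA genes under an H4K5ac region of over 10 kb were higher, as were all 9 for H4K8ac, among them mir-51, mir-270 and mir-8205 for both marks. Of all genes with regions that wide, 71.2% were higher for H4K5ac and 67.1% for H4K8ac. In regions of 10 kb or less, 9 of 23 microRNA genes were higher and 6 lower for H4K5ac, where 24.6% of all genes with such regions were higher and 34.4% lower. For H4K8ac 10 of 29 were higher and 10 lower, where these shares were 22.7% and 39.8%. The Spearman correlation of region width and log2 fold across members was 0.59 for H4K5ac (52 genes) and 0.63 for H4K8ac (61 genes), beside 0.58 and 0.54 across all listed genes. Regions were defined from these same libraries, so this relation is a description. Of the long intergenic RNA genes with regions over 10 kb, 2 of 2 were higher for H4K5ac, while for H4K8ac 0 of 2 were higher and 1 was lower. The lower one was linc-156, whose H4K8ac region was 11.399 kb wide while its log2 fold was -0.28, and the other was linc-142 (10.199 kb, -0.02). In regions of 10 kb or less, 3 of 18 long intergenic RNA genes were higher and 7 lower for H4K5ac, and 3 of 21 higher and 11 lower for H4K8ac.

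**Figure D4:**
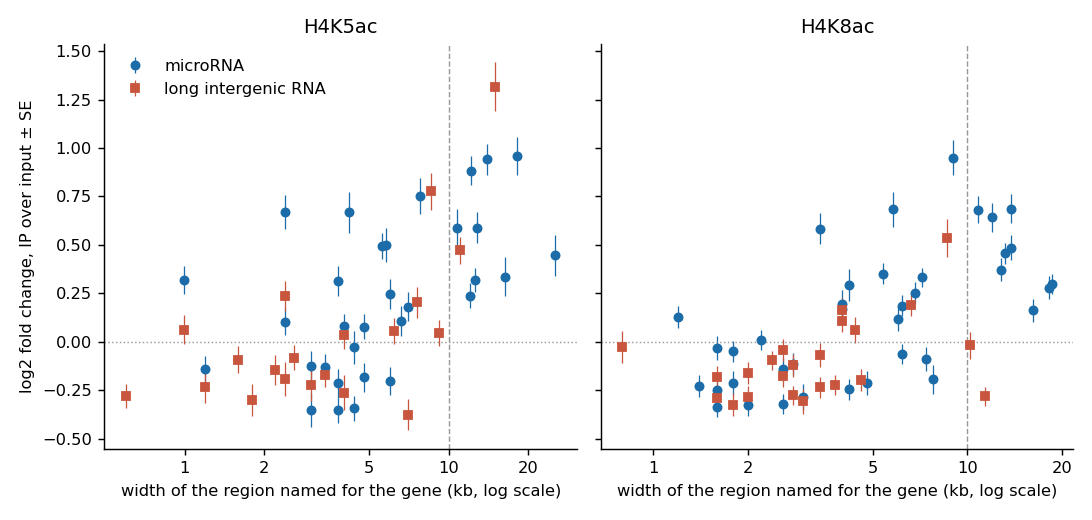
log2 fold change of IP over input with its standard error against the width of the region named for each member (kb, log axis), with a dashed line at 10 kb. All 9 microRNA genes to the right of the line lie above 0 for each mark, and linc-90 is the highest point for H4K5ac.

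Promoter was the commonest category of the deposited annotation in each class and mark, although most members had another one. Among all listed genes 39.1% had a promoter region for H4K5ac and 37.9% for H4K8ac, and 18.8% and 18.2% had an exonic one. For H4K5ac, 13 of 32 microRNA genes had a promoter region, 8 a region at a transcription end, 7 an intronic one and 4 an intergenic one. Of the 20 long intergenic RNA genes these counts were 8, 3, 4 and 5. For H4K8ac, microRNA genes had 11 promoter, 10 transcription end, 7 intronic, 7 intergenic and 3 exonic regions, and long intergenic RNA genes 10, 4, 1, 3 and 5. The centre lay within 1 kb of the start in 19 of 32 microRNA and 13 of 20 long intergenic RNA genes for H4K5ac, and in 19 of 38 and 16 of 23 for H4K8ac. Among all listed genes these shares were 62.0% and 59.7%. MicroRNA genes with a promoter region had a median H4K5ac log2 fold of -0.028 and those with an intronic region 0.34. For H4K8ac these medians were 0.17 and 0.37. The annotation often named another gene than the member, as with the alh-3 intron for mir-51 and the gid-2 intron for mir-81. Where a gene had several regions, the first listed was used.

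MicroRNA genes inside protein-coding genes had higher median folds than those outside, with no test made of that difference. The 19 microRNA genes within the span of a coding gene had a median H4K5ac log2 fold of 0.32, and 13 of them were higher. The 13 outside had 0.078, and 5 were higher. For H4K8ac the medians were 0.28 over 16 genes inside and -0.040 over 22 outside, with 10 and 9 higher. Beside the 32.2% and 31.2% of all listed genes that were higher, the counts outside, 5 of 13 and 9 of 22, were not far above. The strand of the host was not used here, so sense and antisense hairpins are pooled. One host of a higher member was arx-1, a subunit of the actin-nucleating complex (mir-5546, 0.49 for H4K5ac and 0.35 for H4K8ac). Another was the cadherin gene hmr-1 (mir-8190, 0.34 and 0.16). The H4K8ac call of mir-8190 was lost without IP replicate 1 or 3 or any 1 of the inputs (edgeR adjusted p up to 0.1075). Its H4K5ac call was lost without input replicate 3 (edgeR adjusted p = 0.0629). Both calls were also lost under total count scaling. Within hil-2, a linker histone gene, mir-8201 had -0.14 for H4K5ac, which did not pass, and -0.23 for H4K8ac, which was lower.

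Long intergenic RNA genes with no coding gene within 2 kb of their start had lower median folds than those with one. For H4K5ac the medians were -0.13 over 4 microRNA and -0.21 over 10 long intergenic RNA genes, and for H4K8ac -0.012 over 6 and -0.22 over 11. Of those 6 microRNA genes 2 were higher and 2 lower for H4K8ac, and their median was not below the -0.036 of all genes. With a coding gene in the window the H4K5ac medians were 0.32 over 28 microRNA and 0.059 over 10 long intergenic RNA genes, and the H4K8ac medians 0.18 over 32 and -0.082 over 12. All listed non-coding genes without a coding gene in the window had medians of -0.17 and -0.14, and those with one -0.065 and -0.068. Of the members with no other annotated gene in the window only 1 was a microRNA gene in each table, with -0.34 for H4K5ac (mir-4937) and -0.21 for H4K8ac (mir-1823). The long intergenic RNA genes of that kind had medians of -0.23 over 7 and -0.20 over 6, so the order of the classes was turned there. How far the counts of a microRNA gene also hold reads of its host or neighbour was not tested.

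Where a neighbour in the window was itself listed, the pair often had like folds but not always. Over 13 such pairs for H4K5ac the median gap was 0.12 and over 15 for H4K8ac 0.18, on the log2 scale, with each pair counted once. The widest H4K5ac gap was between mir-2209.2 and rbm-39 (-0.13 against 1.34), and the widest H4K8ac gap between linc-142 and scd-1, a receptor kinase gene (-0.02 against 0.53). Within the insulin receptor gene daf-2, linc-143 had -0.08 for H4K5ac and -0.04 for H4K8ac, and daf-2 itself was lower, at -0.20 and -0.23.

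On the X chromosome 4 of 7 microRNA genes were higher and 2 lower for H4K5ac, and 1 higher and 5 lower of 10 for H4K8ac. These are partly different genes. Named for H4K5ac alone was mir-1829.2, which was higher. For H4K8ac alone they were mir-266, mir-251 and mir-5592.2, all lower, and mir-73. The H4K5ac calls of mir-81 and mir-2217.2 were lost without IP replicate 2, and the H4K8ac call of mir-266 without IP replicate 1. X-linked long intergenic RNA genes had 1 higher and 2 lower of 6, and 0 higher and 4 lower of 7. Among all X-linked genes 17.6% were higher and 41.1% lower for H4K5ac, and 12.4% higher and 52.1% lower for H4K8ac.

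The folds of the 2 marks were compared over the 35 members of both tables, in a fit of all 12 samples over 3750 genes. No member differed between the marks by edgeR's test (0 called, 0% of all genes tested). At an unadjusted p under 0.05 the same test gave 6 microRNA and 1 long intergenic RNA gene, and 549 of all genes. The smallest p belonged to linc-82, with an H4K5ac fold larger by 0.32 on the log2 scale (SE 0.090, edgeR adjusted p = 0.207), then mir-84 (0.28, SE 0.098, edgeR adjusted p = 0.243) and mir-34 (0.36, SE 0.13, edgeR adjusted p = 0.261). DESeq2 called linc-82 alone of the members (adjusted p = 0.0389), and 27 genes higher and 14 lower over the whole table. Without H4K5ac IP replicate 3, mir-34 and mir-84 passed (edgeR adjusted p = 0.0404 and 0.0285), as did 149 genes higher and 44 lower. The inputs compared with each other gave 0 calls, with 2 microRNA and 1 long intergenic RNA gene at an unadjusted p under 0.05. In simulated counts the edgeR test of the difference recovered 34% of log2 changes of 0.32. Differences of the size seen in linc-82 can thus be missed, and the lack of calls does not show equal folds.

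Among the members listed for both marks no call in one table ran against that in the other, and among all 3750 genes listed for both marks 6 were higher for H4K5ac and lower for H4K8ac and 2 the other way round. Of the 23 microRNA genes 10 were higher for both and 3 lower for both, where 29.5% of all 3750 genes were higher for both and 16.2% lower for both. Of the rest, 2 were higher for H4K5ac and not called for H4K8ac, 3 the other way round, 2 lower for H4K8ac and 1 lower for H4K5ac, each without a call for the other mark, and 2 had no call. Of the 12 long intergenic RNA genes 1 was higher for both (linc-105) and 4 lower for both. Members named in 1 table only were mostly not bare of the other mark, since 13 of the 17 named for H4K5ac alone and 18 of the 26 named for H4K8ac alone lay under a region of the other mark.

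**Figure D5:**
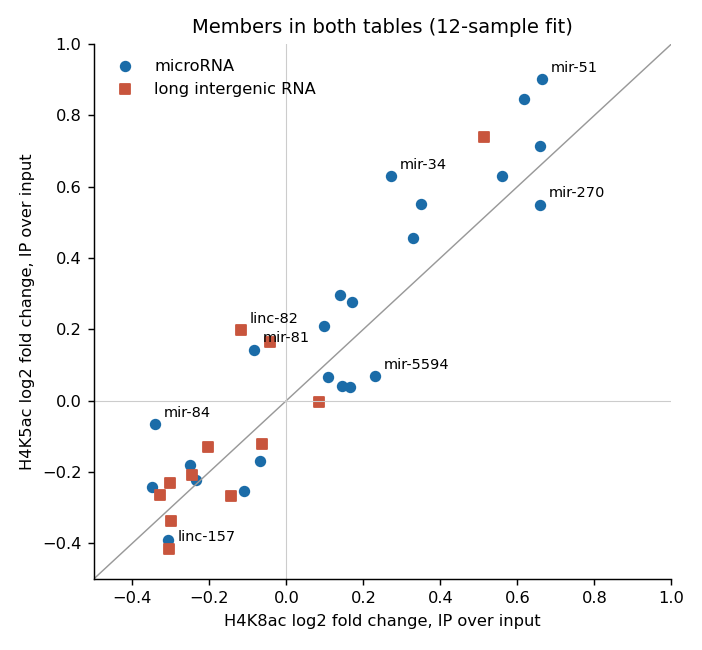
H4K5ac against H4K8ac log2 fold change of IP over input for the 23 microRNA (circles) and 12 long intergenic RNA genes (squares) of both tables, from the 12-sample fit, with the line of equal folds. mir-34, mir-84 and linc-82 lie farthest above the line, and none passed the test of the difference.

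Genes of the microRNA pathway were read in the same tables from a list of 25, which included lin-28 and lin-46. The microRNA genes lin-4, let-7 and lsy-6 were also on that list and were named in neither table. The H4K5ac table held 10 of the 25. Of these, 7 were higher, lin-28 and lin-46 among them, and 1 was lower, with a median log2 fold of 0.33, where 32.2% of all listed genes were higher and 29.5% lower. The H4K8ac table held 12, of which 7 were higher and 3 lower, with a median of 0.32, where these shares were 31.2% and 33.6%. Processing genes were higher for H4K5ac, with drsh-1 (Drosha) at 0.36 and dcr-1 (Dicer) at 0.30, while pash-1, the partner of Drosha, had -0.18, which did not pass. For H4K8ac dcr-1 was at 0.40, and pash-1 was lower at -0.15. The Argonaute gene alg-1 was higher for H4K5ac (0.28) and lower for H4K8ac (-0.17). The test of the difference between marks called 0 of 3750 genes, so alg-1 did not differ between them past the threshold. The largest folds were those of ccf-1, a deadenylase subunit (1.31 and 0.97), and dcs-1, a decapping scavenger enzyme linked to microRNA turnover (1.05 and 0.80). The let-7 antagonist lin-28 was higher at 0.52 and 0.25, and lin-46, which acts downstream of it, at 0.54 and 0.39. The exonuclease gene xrn-1 was lower for H4K5ac (-0.26). Listed for H4K8ac alone, ain-2, a GW182 protein of the silencing complex, was higher at 0.55 and vig-1 at 0.81. Lower for H4K8ac was ebax-1 (-0.26), which had -0.17 for H4K5ac and did not pass there. Among 7 target genes, lin-41, the classical let-7 target, was higher for both marks (0.50 and 0.46), let-60 was higher for H4K5ac (0.31), and lin-42 was lower for H4K5ac (-0.32) and at 0.16 for H4K8ac, which did not pass.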

How the data were processed

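H4K5ac and H4K8ac ChIP-seq of adult N2 worms was read from 12 tables, with 3 IP and 3 input libraries per mark. The authors deposited 1 estimated count per gene and library, not normalized and repeated on each region of the gene. Per the submitters' processing notes, MACS2 2.1.0, Bowtie 1.1.2, Trimmomatic 0.33 and bcl2fastq 2.17 were used, and hg38 and WBcel235 are listed as builds. Their roles, the counting tool, and any pooling before region calling are not given in the sources used here. Per the labels' protocols, chromatin was sheared to between 0.2 and 1 kb. Distances to start sites equalled the region centre minus the WBcel235 start within 1 bp in 56 of 57 and 63 of 64 member regions.

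Estimated counts were rounded and tested with edgeR 4.0.16 (R 4.3.3) as quasi-likelihood fits with TMM scaling, 1 fit of 6 samples per mark and 1 fit of 12 samples for the difference. The filter on low counts removed 0 genes. Genes and neighbours were matched to a RefSeq gene table of WBcel235, which gave no sequences. Members, lists and rules were chosen with earlier results of these data known. Genes named are, per mark and class, the 6 highest and 4 lowest among those past the threshold, listed members of the mir-35, let-7, mir-51 and mir-58 families, and mir-1, mir-34, mir-71 and mir-124. The members with the smallest p for the difference, and hosts and neighbours with their members, were named after their values were seen. The steps were tested on simulated data. Replicates within a group differed by more than counting noise, with chi-square values of 1.28 to 22.9 per degree of freedom, and all were kept.

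Replicate numbers are shared by IP and input. For H4K5ac, deviations of the same-numbered IP and input correlated at 0.28, 0.11 and 0.23 across genes, all above 0.1. IP 2 with input 3 and IP 3 with input 2 (0.15 each) correlated more than IP and input 2. These values therefore do not settle whether the numbers mark pairs. The main fits did not pair samples, so the p-values given for single folds are unpaired. A replicate block changed 1 member's H4K5ac call, linc-156, which became lower (log2 fold -0.20, edgeR adjusted p = 0.0214). Alternatives tried were other scalings (DESeq2 1.42.0 size factors, total count, TMM over the last 10% of the list), no filter, DESeq2's test, the replicate block, a joint fit and leaving out each library.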

Additional observations from a re-analysis of the deposited data

How the results depend on the processing

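The microRNA median stayed above the long intergenic RNA median under each test and fit tried and without each library (0.29 to 0.36 for H4K5ac, 0.24 to 0.33 for H4K8ac), except among members alone in their window. There the microRNA minus long intergenic RNA gap was -0.12 for H4K5ac and -0.010 for H4K8ac, from medians of -0.34 (1 microRNA gene) and -0.23 and of -0.21 (1 gene) and -0.20. A scaling shifts all genes about alike, so the gap cannot move much under one and that is no check of it. Levels and calls moved with the scaling. TMM over the last 10% of the list gave 0 lower microRNA and 0 lower long intergenic RNA genes for each mark, 12 higher long intergenic RNA genes for each, and 3594 and 4020 higher and 0 lower genes over the whole tables. Its medians were 0.59 (microRNA) and 0.26 (long intergenic RNA) for H4K5ac, and 0.45 and 0.14 for H4K8ac. It turned the H4K5ac log2 fold above 0 for linc-100 (0.045), linc-137 (0.088), linc-159 (0.064), linc-99 (0.12), mir-2209.2 (0.21), mir-47 (0.14), mir-4937 (0.00029), mir-787 (0.12) and mir-84 (0.32). It did so in H4K8ac for linc-100 (0.031), linc-142 (0.29), linc-15 (0.019), linc-157 (0.024), linc-82 (0.21), mir-2209.2 (0.26), mir-2217.5 (0.021), mir-787 (0.22) and mir-81 (0.25). The construction of that scaling sets the genes of lowest IP over input to 0. Total count scaling gave 3 higher and 11 lower long intergenic RNA genes for H4K5ac with 2627 lower genes in all, and 1 higher for H4K8ac. Its medians were 0.11 and -0.22 for H4K5ac and 0.077 and -0.23 for H4K8ac. DESeq2 size factors gave H4K8ac medians of 0.17 and -0.13, as did DESeq2's test (0.17 and -0.13). The 12-sample fit holds fewer genes. It gave 2 higher long intergenic RNA genes for H4K5ac with medians of 0.14 and -0.17. For H4K8ac it gave 11 higher and 5 lower microRNA genes, 1 higher and 6 lower long intergenic RNA genes with a median of -0.17, and 1152 higher and 899 lower genes in all. DESeq2 called 1 long intergenic RNA gene and 27 higher and 14 lower genes for the difference between marks. When regions were limited to those with the higher IP over input, the stricter threshold tried, H4K8ac regions overlapped 46 of 170 long intergenic RNA genes. The cause of these changes was not tested unless stated.

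Leaving out each library in turn, in fits where the other groups keep 3 samples, gave 15 to 18 higher and 3 to 5 lower microRNA genes and 3 to 5 higher and 2 to 7 lower long intergenic RNA genes for H4K5ac, with 1079 to 1747 lower genes in all. For H4K8ac it gave 16 to 20 higher microRNA genes and 1 to 5 higher and 9 to 12 lower long intergenic RNA genes, with medians of 0.12 to 0.18 and -0.18 to -0.11. For the difference between marks it gave 0 to 2 microRNA genes, and 0 to 149 higher and 0 to 44 lower genes in all.

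For H4K8ac, same-numbered IPs and inputs correlated at -0.24, -0.10 and 0.066. The labels do not say whether they share chromatin, and these values cannot decide it. With the replicate block 1 member changed its H4K8ac call (mir-266, no longer lower), and the counts were 19 higher and 9 lower microRNA genes and 3 higher and 12 lower long intergenic RNA genes, with 1721 higher and 1851 lower in all. In the H4K5ac block, apart from linc-156, no member's call changed, and the block gave 0 calls for the difference and for the inputs.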
